A study of Mus musculus with 6 samples.

Results

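The autophagy machinery and its cargo receptors were examined in RAW264.7 cells, an established mouse macrophage line, grown for 3 days on polyetheretherketone (PEEK), a polymer used for bone implants. The members were a list of 37 genes chosen by function and matched by symbol through the platform annotation. Of these, 36 were measured, each by 1 probe set, among 19505 genes in all; Optn was not analysed here. The list held 16 genes of initiation, 16 of conjugation and 5 receptors, of which 4 receptors were measured. Total RNA from 3 samples on pristine PEEK, the control, and 3 on a modified PEEK surface was hybridised to 6 Affymetrix arrays. All 6 samples were the same line with no other treatment given in the labels, and the sources used here do not describe the modification. A single immortal line is a limited model of tissue macrophages. The labels report triplicate seeding without saying whether separate cultures were used, so the p-values reflect spread among 3 samples a surface, and that spread could be technical.

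Autophagy encloses cytoplasm in a double membrane, the autophagosome, and delivers it to the lysosome. A kinase complex around ULK1 and a lipid kinase complex around Beclin 1 start the membrane, and ATG9, ATG2 and WIPI proteins supply and mark it. Ubiquitin-like reactions then attach proteins of the ATG8 family, LC3 and GABARAP, to the membrane lipid phosphatidylethanolamine, and receptors such as p62 bind both cargo and ATG8. Macrophages use this route, and parts of it, to digest organelles, aggregates and bacteria. Several of these proteins are themselves consumed with the cargo, and transcript levels do not measure that flux.

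Mean signals of the 5 ATG8 genes and the 4 receptors were lower on modified PEEK. Gabarap and Tax1bp1 were exceptions when arrays were scaled to poly-A spikes, control RNAs added for labelling. The ATG8 family and the receptors were separate groups in the plan, and reading them together was not planned. Of the 27 initiation genes and conjugation enzymes and scaffolds, 2 fell, and in 19 the arrays of the surfaces overlapped. Both counts lay near the shares of all genes, of which 5.15% fell and 13886 of 19505 overlapped. These 27 are the members left once the ATG8 genes and the receptors were set aside. Their counts depend on that unplanned split and are not an independent comparison. Of the 36 genes, 6 fell and 0 rose at an adjusted p under 0.05 (limma, Benjamini-Hochberg over all 19505 genes). Over all genes, 5.15% fell and 5.24% rose at that threshold, 10.4% in either direction. That share includes dim genes, whereas all 36 members lay above the background signal of 3.72 on both surfaces. With genes below background on both surfaces left out, 8 members fell and 0 rose. Of the 13229 genes then tested, 10.2% fell and 20.1% passed in either direction. The 6 genes that fell were Sqstm1 (2.09-fold), Map1lc3a (1.92-fold), Calcoco1 (1.69-fold), Atg12 (1.37-fold), Atg2a (1.35-fold) and Map1lc3b (1.30-fold). At an unadjusted p under 0.05 (limma) there were 13 lower and 1 higher (Pik3c3). At that level 4424 of all 19505 genes passed, 2218 of them lower. By limma's ordinary t statistic, adjusted the same way, 5 members were lower and 0 higher, and 3.85% of all genes were lower. Those 5 included Gabarap but not Atg12 or Atg2a. Only Sqstm1 and Map1lc3a passed under every one of the 18 processing alternatives. The count of falls was 3 when any array but modified PEEK replicate 1 or 3 was left out, 7 without modified PEEK replicate 1 and 4 without modified PEEK replicate 3.

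By group, 1 of 16 initiation genes, 3 of 16 conjugation genes and 2 of 4 receptors fell. Their median log2 changes, modified minus pristine, were 0.0047, -0.18 and -0.65, beside 0.0088 for all genes and -0.14 for the 36 members. Within conjugation, the 5 ATG8 genes had a median of -0.35, with 2 falls, and the 11 enzymes and scaffolds one of -0.0041, with 1 fall. No overlap between the surfaces' arrays was seen for 13 members lower and 3 higher on modified PEEK. Among all genes, 28.8% did not overlap, 14.5% lower and 14.3% higher. Differences between the groups of members were not tested.

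**Figure D1:**
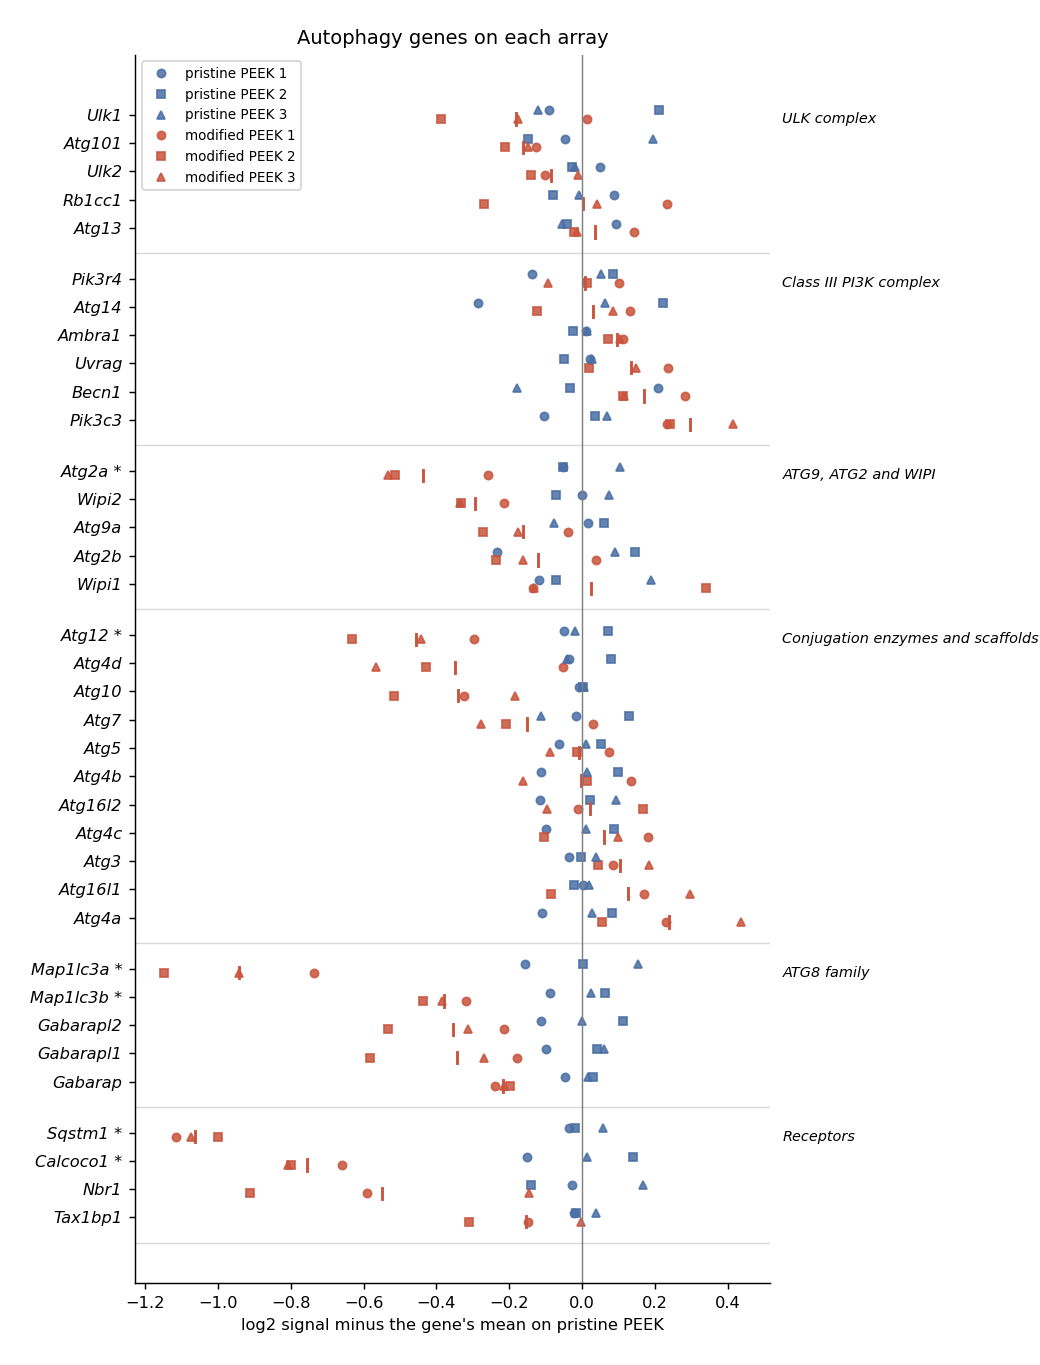
Log2 signal of each of the 36 genes on every array, as the difference from that gene's mean on pristine PEEK; blue, pristine; red, modified; the symbol shape gives the replicate, the red bar the mean on modified PEEK, and an asterisk an adjusted p under 0.05. Red points of the ATG8 family and of Sqstm1, Calcoco1 and Nbr1 lie below the blue points, whereas those of the ULK complex overlap them.

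**Figure D2:**
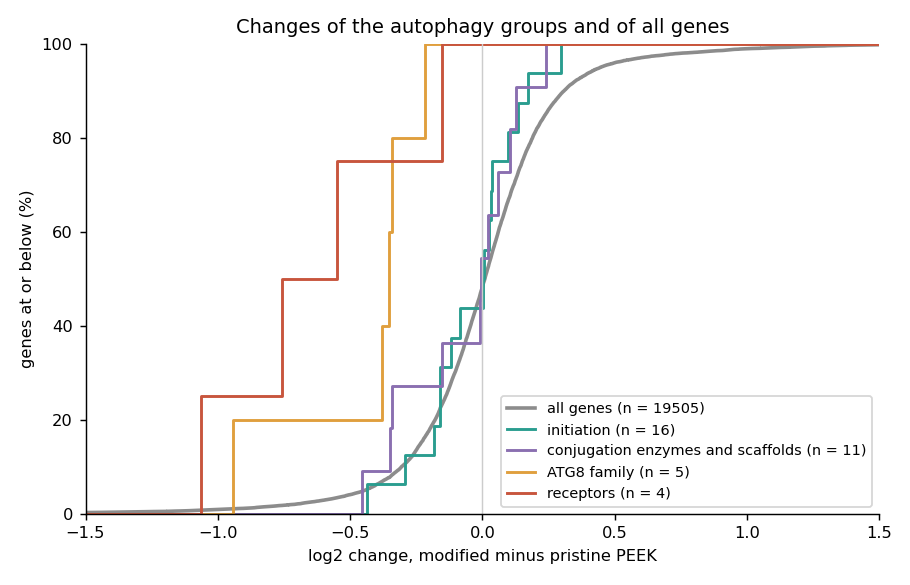
Cumulative share of genes (%) at or below each log2 change, modified minus pristine PEEK, for all 19505 genes and 4 groups of autophagy genes. The ATG8 family and receptor curves lie left of 0, with medians of -0.35 and -0.65, and the other 2 groups follow the curve of all genes; scaled to the poly-A spikes, Gabarap and Tax1bp1 lie above 0.

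Of the 36 members Sqstm1 had the largest change. It encodes p62, which binds ubiquitin on cargo and LC3 on the membrane, and which also holds the NRF2 repressor KEAP1. The log2 signal of Sqstm1 was 11.40, 11.42 and 11.49 on pristine PEEK and 10.32, 10.44 and 10.36 on modified PEEK. Each modified array lay well below each pristine array, and the spread within a surface was small. The fall was 1.06 on the log2 scale (SE 0.09, 95% interval -1.27 to -0.86; limma adjusted p = 0.00035). Without any 1 of the arrays it stayed called, with an adjusted p of at most 0.0039.

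Calcoco1 encodes a coiled-coil protein described as a receptor for autophagy of the endoplasmic reticulum and Golgi. It measured 7.53, 7.82 and 7.70 on pristine and 7.02, 6.88 and 6.87 on modified PEEK. All modified arrays were lower, and the gap exceeded the range within either surface. The fall was 0.76 (SE 0.11; limma adjusted p = 0.00338).

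Nbr1, a receptor related in domain plan to p62, measured 7.64, 7.53 and 7.84 on pristine and 7.08, 6.76 and 7.53 on modified PEEK. Modified PEEK replicate 3 nearly reached the lowest pristine array, and the change of -0.55 (95% interval -0.98 to -0.12) did not pass (limma adjusted p = 0.121). Without that array it was -0.75 and passed (limma adjusted p = 0.0341). Tax1bp1, a ubiquitin-binding receptor that also restrains NF-kB signalling, measured 9.10, 9.11 and 9.16 on pristine and 8.97, 8.81 and 9.12 on modified PEEK. The surfaces overlapped, and its change of -0.15 did not pass (95% interval -0.40 to 0.09; limma adjusted p = 0.46).

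The ATG8 family supplies the proteins that coat the autophagosome and that receptors bind. For each of its 5 genes the modified arrays lay below every pristine array, and 2 passed; scaled to the poly-A spikes, Gabarap was at 0.03 and 1 of the 5 passed. Map1lc3a, which encodes LC3A, measured 6.0, 6.16 and 6.31 on pristine and 5.42, 5.01 and 5.21 on modified PEEK. The gap between the surfaces was wider than the range within either. It fell by 0.94 (SE 0.13, 95% interval -1.25 to -0.63; limma adjusted p = 0.00333).

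Map1lc3b encodes LC3B, the form most used as a marker of autophagosomes. Its signal was 8.80, 8.95 and 8.91 on pristine and 8.57, 8.45 and 8.50 on modified PEEK. The arrays did not overlap, and the fall of 0.38 (SE 0.09) passed narrowly (limma adjusted p = 0.0372). The call held without modified PEEK replicate 1 and was lost without any other array (limma adjusted p from 0.0697 to 0.147). With all arrays kept, it was also lost after centring on array medians, when scaled to the poly-A spikes and with the replicate number as a block.

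None of the 3 genes of the GABARAP branch passed, although Gabarapl1 and Gabarapl2 changed nearly as much as Map1lc3b (-0.38). A difference between the LC3 and GABARAP branches was not tested. Gabarap measured 10.86, 10.94 and 10.92 on pristine and 10.67, 10.71 and 10.69 on modified PEEK, a change of -0.22 (limma adjusted p = 0.178). The modified arrays of Gabarap were nearly equal to each other and all lower. Gabarapl1 measured 7.41, 7.55 and 7.57 against 7.33, 6.92 and 7.24, a change of -0.34 (limma adjusted p = 0.144). Gabarapl2 measured 7.89, 8.11 and 8.0 against 7.79, 7.47 and 7.69, a change of -0.35 (limma adjusted p = 0.106). When the variance was modelled with a trend on signal intensity, all 3 passed as lower, at adjusted p-values of 0.000793, 0.0294 and 0.0106.

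**Figure D3:**
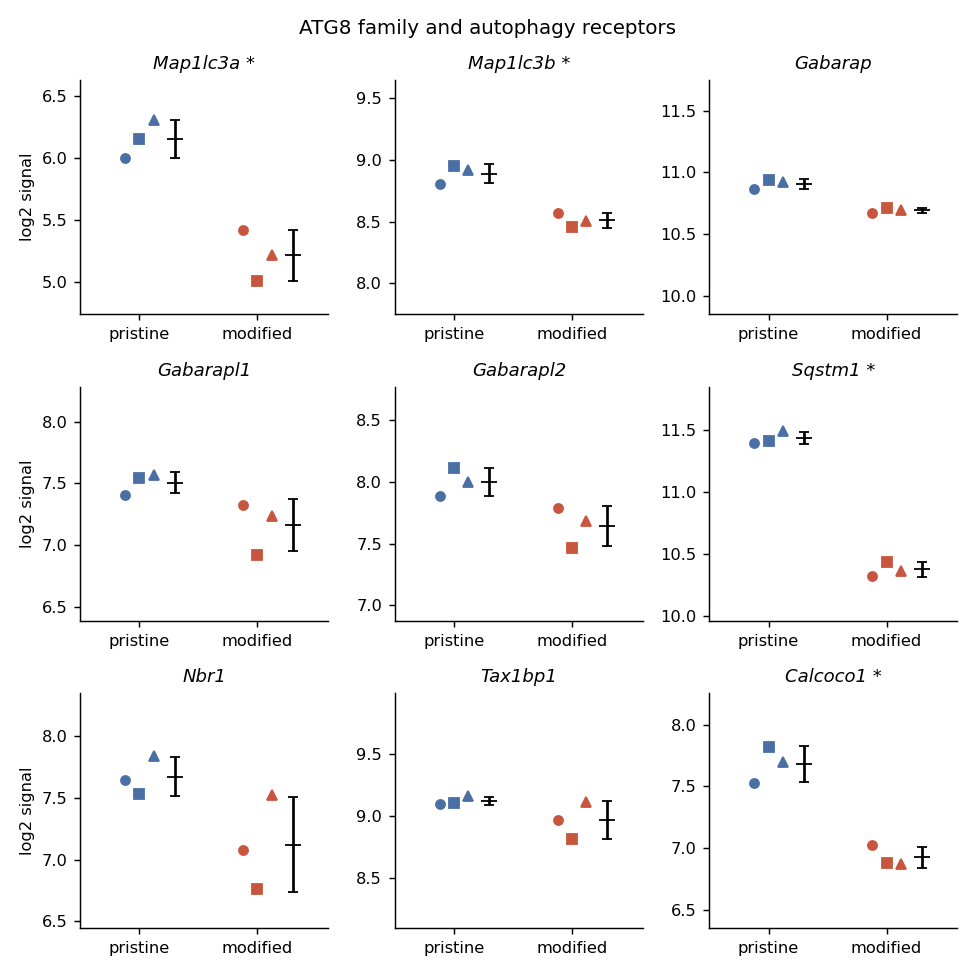
Log2 signal of the 5 ATG8 genes and 4 receptors on each array (blue, pristine; red, modified; shape, replicate), with mean ± SD (n = 3) beside the points; every panel spans the same log2 range and an asterisk marks an adjusted p under 0.05. The arrays do not overlap in any panel but Tax1bp1; scaled to the poly-A spikes, the changes of Gabarap and Tax1bp1 were 0.03 and 0.09.

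The conjugation enzymes and scaffolds attach ATG8 and ATG12 to their targets. Atg12 is the ubiquitin-like protein that ATG7 and ATG10 join to ATG5. It measured 8.47, 8.59 and 8.50 on pristine and 8.23, 7.89 and 8.08 on modified PEEK. All modified arrays were lower, replicate 2 the most. Atg12 fell by 0.46 (SE 0.11, limma adjusted p = 0.0367). That call held without modified PEEK replicate 1 and was lost without any other array (limma adjusted p from 0.0842 to 0.133). With all arrays kept, median centring, spike scaling, the replicate number as a block and the ordinary t statistic each ended it.

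Atg10, the enzyme that transfers ATG12 to ATG5, was nearly constant on pristine PEEK at 7.03, 7.04 and 7.05 and lay at 6.72, 6.52 and 6.85 on modified PEEK. The arrays did not overlap, but the change of -0.34 did not pass (limma adjusted p = 0.093). Atg4d, one of 4 proteases that trim ATG8 proteins and release them from lipid, measured 5.94, 6.06 and 5.94 against 5.93, 5.55 and 5.42. Modified PEEK replicate 1 lay next to the pristine arrays, and the change of -0.35 did not pass (limma adjusted p = 0.183); without that array it was -0.50 and did (limma adjusted p = 0.0295).

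Atg3, the enzyme that hands LC3 to its lipid, was slightly higher without overlap, at 8.26, 8.29 and 8.34 against 8.38, 8.34 and 8.48. Its change of 0.10 did not pass (95% interval -0.10 to 0.31; limma adjusted p = 0.575). The other 7 enzymes and scaffolds overlapped between surfaces. The largest difference among these was that of the protease gene Atg4a (0.24; limma adjusted p = 0.299). Atg7, which activates both ATG8 and ATG12, changed by -0.15. Atg4b (-0.0041) and Atg5 (-0.0098) were nearly level, with 95% intervals of -0.26 to 0.26 and -0.22 to 0.21. The ATG16L scaffold genes Atg16l1 (0.13) and Atg16l2 (0.02) and the protease gene Atg4c (0.06) did not pass either.

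Among the initiation genes the lipid transfer protein gene Atg2a was called. ATG2 proteins bridge the endoplasmic reticulum and the growing membrane. Atg2a measured 6.77, 6.76 and 6.92 on pristine and 6.56, 6.30 and 6.28 on modified PEEK. Every modified array was lower, and Atg2a fell by 0.44 (SE 0.11; limma adjusted p = 0.0437). This call held without modified PEEK replicate 1 and was lost without any other array (limma adjusted p from 0.10 to 0.167). With all arrays kept, the Atg2a call was lost under the same alternatives as that of Atg12. Its paralogue Atg2b overlapped and changed by -0.12 (95% interval -0.42 to 0.18; limma adjusted p = 0.673).

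Wipi2, which reads the lipid phosphatidylinositol 3-phosphate and recruits ATG16L1, measured 8.17, 8.10 and 8.24 on pristine and 7.95, 7.84 and 7.83 on modified PEEK. The modified arrays were all lower, but the change of -0.29 did not pass (limma adjusted p = 0.0947). Wipi1 (0.02) and Atg9a (-0.16), the gene of the lipid scramblase carried on seed vesicles, overlapped and did not pass. Wipi2 and Atg10 did pass when genes below background on both surfaces were left out (adjusted p = 0.0441 and 0.0487).

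None of the 5 ULK complex genes passed (limma; 0 at an unadjusted p under 0.05), and in each the arrays of the surfaces overlapped. Ulk1, the kinase gene, measured 5.42, 5.72 and 5.39 on pristine and 5.52, 5.12 and 5.33 on modified PEEK (change -0.18, limma adjusted p = 0.514). For the others the changes were -0.16 for Atg101, -0.08 for the second kinase gene Ulk2, 0.0022 for the scaffold gene Rb1cc1 and 0.04 for the adaptor gene Atg13. The 95% interval of Atg13 ran from -0.19 to 0.26.

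The 6 genes listed here under the class III PI3K complex all had positive changes, as did 10077 of all 19505 genes. Of the 6, 0 passed in limma, and 1 had an unadjusted limma p under 0.05. Pik3c3, the lipid kinase gene, measured 6.62, 6.76 and 6.79 on pristine and 6.96, 6.96 and 7.14 on modified PEEK. Its arrays did not overlap, and its change of 0.30 (95% interval 0.06 to 0.53) did not pass (limma adjusted p = 0.117). It passed as higher with the lowest 50% of genes by signal left out (adjusted p = 0.0309) and when scaled to the poly-A spikes (adjusted p = 0.0457). Ambra1, a regulator of Beclin 1, was also higher without overlap, at 8.56, 8.53 and 8.57 against 8.67, 8.63 and 8.66 (change 0.10, limma adjusted p = 0.579). The Beclin 1 gene Becn1 (0.17), Uvrag (0.13), Atg14 (0.03) and Pik3r4 (0.0073) overlapped between surfaces.

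Modified PEEK replicate 2 was the lowest of the modified arrays for 23 of the 36 members (63.9%), against 33.7% of all genes. Relative to the pristine means, the members' median was -0.21 on that array, -0.15 on replicate 3 and -0.02 on replicate 1. For all genes these medians were 0.03, -0.01 and -0.0087. The 5 ATG8 genes followed the same order, at -0.53, -0.31 and -0.24, and the 4 receptors lay at -0.86, -0.48 and -0.63. The poly-A spike probe sets were also lowest on modified PEEK replicate 2, at 6.55, against 6.77 to 7.05 on the other arrays. Changes scaled to these spikes are given below, and why the spikes were lowest on this array was not tested. The members' median change was -0.08 without this array, and also -0.08 without pristine PEEK replicate 2 or 3; in each of these cases Sqstm1, Map1lc3a and Calcoco1 were the members that passed.

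Scaling the arrays to the poly-A spikes moved the median change of all genes to 0.26 and that of the members to 0.11, which is -0.15 relative to all genes. On that scale Sqstm1 fell by 0.82 (limma adjusted p = 0.00717) and Map1lc3a by 0.69 (limma adjusted p = 0.0115). Relative to the median of all genes these were -1.07 and -0.95. The scaling shifts every gene of an array by the same amount. Values relative to all genes are therefore the same with and without it, and do not test it. Calcoco1 was at -0.51 and did not pass (limma adjusted p = 0.057).

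The promoters of the 4 genes that fell and have an entry, and that of Atg3, are shown because the first 4 were lower together while Atg3 carries the E-boxes linked to TFEB-type factors. Each run is the 250 bases before the RefSeq start (GRCm38.p6), read 5′ to 3′ on the gene's strand. Capitals mark 6 motifs searched on both strands: the E-box CACGTG, the CLEAR core TCACGTG that contains it, the antioxidant response element core TGACNNNGC bound by NRF2, the cyclic AMP response element TGACGTCA, the amino acid response element core TGATGNAA and the GC box GGGCGG. The windows lie at chr11:50210821-50211070 (minus strand) for Sqstm1, chr15:102722179-102722428 (minus) for Calcoco1, chr8:121590188-121590437 (plus) for Map1lc3b, chr19:6241418-6241667 (plus) for Atg2a and chr16:45158579-45158828 (plus) for Atg3.
Sqstm1: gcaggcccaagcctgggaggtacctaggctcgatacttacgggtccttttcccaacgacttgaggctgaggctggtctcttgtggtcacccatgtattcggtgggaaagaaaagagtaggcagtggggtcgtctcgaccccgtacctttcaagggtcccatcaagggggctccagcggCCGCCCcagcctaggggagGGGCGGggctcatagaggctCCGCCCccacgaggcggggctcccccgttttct
Calcoco1: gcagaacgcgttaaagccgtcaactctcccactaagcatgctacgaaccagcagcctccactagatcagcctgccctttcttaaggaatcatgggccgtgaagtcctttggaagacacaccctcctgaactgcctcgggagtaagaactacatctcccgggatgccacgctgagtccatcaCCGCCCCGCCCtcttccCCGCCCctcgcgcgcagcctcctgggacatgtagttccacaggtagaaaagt
Map1lc3b: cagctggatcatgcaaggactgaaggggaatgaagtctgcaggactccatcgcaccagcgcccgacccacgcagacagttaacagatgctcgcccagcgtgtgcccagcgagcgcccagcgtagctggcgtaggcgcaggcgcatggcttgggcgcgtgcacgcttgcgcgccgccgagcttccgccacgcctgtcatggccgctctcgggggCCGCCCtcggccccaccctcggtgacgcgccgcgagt
Atg2a: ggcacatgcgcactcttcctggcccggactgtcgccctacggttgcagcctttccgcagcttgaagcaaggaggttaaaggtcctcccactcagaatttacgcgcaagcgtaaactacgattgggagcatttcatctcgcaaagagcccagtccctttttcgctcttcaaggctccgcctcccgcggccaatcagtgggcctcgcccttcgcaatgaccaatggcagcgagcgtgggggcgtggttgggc
Atg3: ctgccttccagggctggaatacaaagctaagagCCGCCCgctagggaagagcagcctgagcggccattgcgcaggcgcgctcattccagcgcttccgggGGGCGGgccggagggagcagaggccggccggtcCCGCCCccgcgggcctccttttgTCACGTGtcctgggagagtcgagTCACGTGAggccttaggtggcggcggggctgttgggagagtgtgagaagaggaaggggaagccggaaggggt

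In these windows Sqstm1, Calcoco1 and Map1lc3b held GC boxes and none of the other motifs, and Atg2a held none of the 6. Map1lc3a and Atg12, the other genes that fell, are not among the entries. Atg3 held 2 E-boxes, both within a CLEAR core. Of the 30 measured members with a promoter entry, 19 held a GC box, against 35.4% of 27025 genes. An E-box was found in 3 (Atg3, Atg5 and Atg7, none of which passed), against 6.86% of genes, and the CLEAR core in 2, against 3.58%. The antioxidant response element core was found in 3 (Atg13, Tax1bp1 and Ulk2), against 11.5% of genes. Atg16l2 alone held the cyclic AMP response element (1.77% of genes), and 0 held the amino acid response element core (3.91%). A match of letters is a description of the window and not a bound site.

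Further genes of the pathway were read from 4 lists, with 73 of 77 genes measured. Of these, 8 fell and 3 rose, against 5.15% and 5.24% of all genes. Of 19 genes of fusion and maturation, 2 fell and 0 rose. Epg5, a tether that joins autophagosomes to late endosomes, measured 7.22, 7.40 and 7.27 on pristine and 6.78, 6.42 and 6.75 on modified PEEK (change -0.65, limma adjusted p = 0.013; 0.0559 without pristine PEEK replicate 2). Tecpr1, whose protein binds the ATG12-ATG5 conjugate, changed by -0.63 at the threshold (limma adjusted p = 0.0499) and passed in the absence of modified PEEK replicate 1 but of no other array (up to 0.152). Rab7, the late endosome GTPase gene, did not pass (-0.07, limma adjusted p = 0.717).

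Of 16 organelle and cargo receptor genes, 2 fell and 1 rose. Tex264, a receptor for autophagy of the endoplasmic reticulum, measured 8.41, 8.38 and 8.41 on pristine and 7.82, 7.78 and 7.48 on modified PEEK. The modified arrays were all lower, and Tex264 fell by 0.70 (limma adjusted p = 0.00562). Tollip, an adaptor that binds ubiquitin and LC3, fell by 0.46 (limma adjusted p = 0.013), a call that needed pristine PEEK replicates 1 and 2 and the modified replicate 3 (0.0604 at most when 1 was left out). Ncoa4, the receptor that takes ferritin to the lysosome, rose by 0.36 (limma adjusted p = 0.0402) but leaving out any array ended the call (from 0.0641 to 0.157). Rtn3 did not pass (-0.06, limma adjusted p = 0.781).

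Of 25 nutrient control genes, 1 rose and 1 fell. Deptor, an inhibitor of the growth kinase mTOR, measured 5.19, 5.5 and 5.31 on pristine and 6.56, 6.45 and 6.52 on modified PEEK. All modified arrays were higher, and Deptor rose 2.26-fold (log2 change 1.18, SE 0.11; limma adjusted p = 0.000455), passing in each of the 18 alternatives. Rragd, a Rag GTPase that recruits mTORC1 to the lysosome, fell by 0.86 to a mean of 3.91, with modified PEEK replicate 3, at 3.65, below the background of 3.72. The call for Rragd (limma adjusted p = 0.0253) ended when the first or second pristine array, or modified PEEK replicate 1 or 3, was left out (up to 0.0985). Rragc did not pass (-0.21, limma adjusted p = 0.296).

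Of 13 transcriptional control genes, 3 fell and 1 rose. Ddit3, the stress factor CHOP, fell by 1.13 (limma adjusted p = 0.00216). Trp53inp1 fell by 0.96 (limma adjusted p = 0.00438) and Trp53inp2 by 0.55 (limma adjusted p = 0.0165); both proteins bind ATG8 family members. The call for Trp53inp2 was lost without any pristine array or without modified PEEK replicate 3 (up to 0.0698). Mitf, a factor of the TFEB family, rose by 0.42 (limma adjusted p = 0.0391) and passed in the absence of modified PEEK replicate 2 but of no other array (up to 0.159). Atf4, which directs the amino acid stress response, lay at 10.57, 10.61 and 10.56 against 10.30, 10.14 and 10.27 and did not pass (-0.34, limma adjusted p = 0.0516). Of the factors best known for driving Sqstm1 and lysosomal genes, named here after their values were seen, Nfe2l2 (0.13, adjusted p = 0.573) and Tfeb (0.26, adjusted p = 0.188) did not pass. Nor did Keap1 (0.27, limma adjusted p = 0.302). The arrays measure transcripts and not protein activity, and the part of these factors in the fall of Sqstm1 was not tested.

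The macrophage label was checked against its markers. All 9 measured macrophage markers lay above the background of 3.72 on both surfaces, and their mean level over the list was 10.37 to 10.43 on pristine and 10.28 to 10.34 on modified arrays; 1 was higher and 2 lower. Of the other lists, 3 of 4 fibroblast, 3 of 4 epithelial, 2 of 4 T cell, 1 of 3 B cell and 0 of 4 endothelial markers lay above background on both surfaces, and 0 of these markers passed in limma (1, Col3a1, at an unadjusted p under 0.05). The collagen gene Col1a1, named after its values were seen, lay at 5.80 on pristine and 6.0 on modified PEEK; the part of such signal in the results was not tested. All 6 osteoclast markers lay above background on both surfaces, and their mean level was 6.54 to 6.63 on pristine and 6.13 to 6.36 on modified PEEK. The list did not move together. Acp5 (-1.41) and Dcstamp (-0.84) fell, whereas Ctsk (-0.29), Oscar (-0.32), Nfatc1 (0.31) and Ocstamp (0.33) did not pass. Whether the lower mean of this list bears on the autophagy genes was not tested. In bulk RNA, fewer cells of a type and less RNA per cell cannot be told apart.

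**Figure D4:**
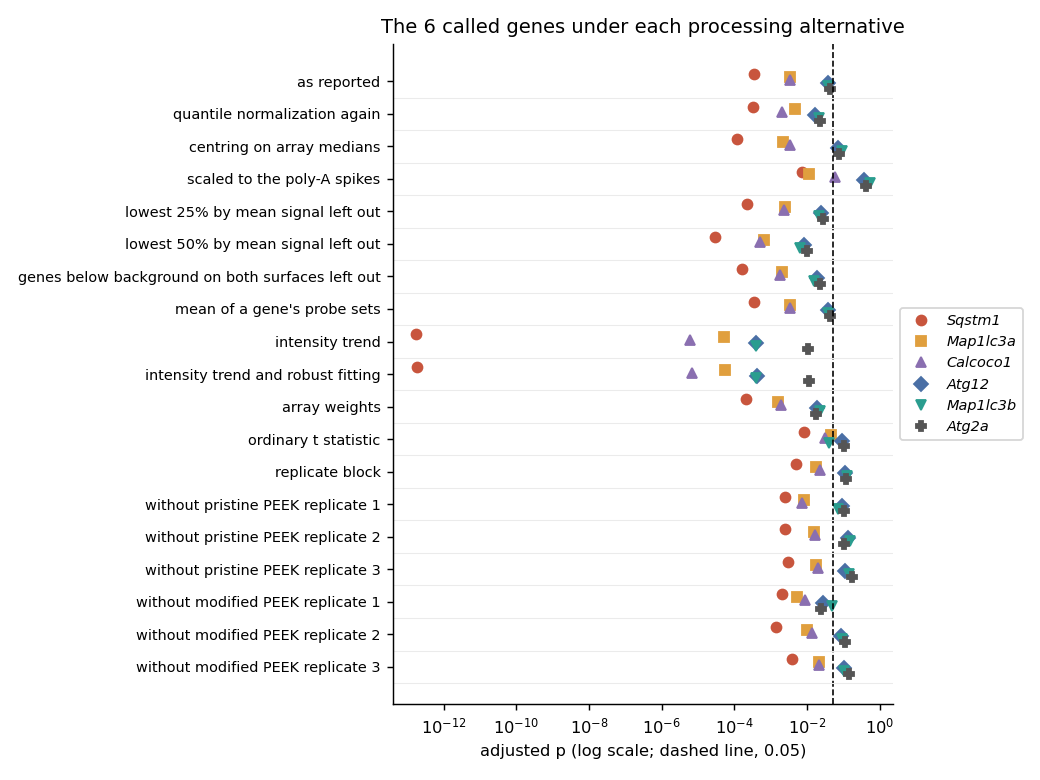
Adjusted p (log axis; dashed line, 0.05) of the 6 called genes as reported and under each of 18 alternatives. Sqstm1 and Map1lc3a stay left of the line throughout, and Calcoco1 crosses it when scaled to the poly-A spikes. Atg12, Map1lc3b and Atg2a lie right of it without most single arrays. They also do so after median centring, scaled to the spikes and with the replicate block.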

How the data were processed

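Total RNA from 6 samples, 3 per surface, was profiled after biotin labelling of cDNA from 250 ng of RNA, per the labels' protocols. The authors deposited 1 log2 signal for each probe set and array. The submitters' processing notes name RMA, which corrects background, equalises array quantiles and summarises probes, with no version or role. No source states the scale, which was read as log2 from the range of 0.941 to 12.4, and near-equal array distributions would hide a change in total RNA per cell. Array controls (6923 of 29129 features) and 2634 probe sets with no gene name here were left out. Each of 19505 genes was represented by its brightest probe set over all arrays. There were 0 unused columns of samples.

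The comparison of surfaces used limma 3.58.1 under R 4.3.3 (lmFit, eBayes without trend, two-sided, no covariate, no filter on dim probes), adjusted by Benjamini-Hochberg over all genes, with 0.05 as the threshold. Background (3.72) was the 95th percentile of mean signal over 1412 genes of olfactory or vomeronasal receptors. Alternatives changed the scaling, the filter, the probe set rule, the variance model, the pairing and the arrays used. The number of arrays limits precision.

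Members, lists and tests were chosen with earlier results of these data known. Members that passed, members whose arrays did not overlap and the brightest uncalled member of each of 6 subgroups are described with array values or changes. From each pathway list up to 4 called genes and the brightest uncalled one are named.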

Additional observations from a re-analysis of the deposited data

How the results depend on the processing

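The count of autophagy genes that fell, 6 as reported, was 3 after centring on array medians, 2 when scaled to the poly-A spikes (24 probe sets), and 12 with the lowest 50% of genes by signal left out or with an intensity trend, robust or not. It ran from 3 to 7 without single arrays. Of all genes, 4.17% fell after centring, 1.49% scaled to the spikes and 8.81% with the trend (8.73% robust), against 5.15% as reported. With the lowest 50% left out, 35 members and 9752 genes were tested, and 15.6% of these genes fell. The count that rose was 1 when scaled to the spikes or with the lowest 50% left out (Pik3c3 in both) and 0 under the other 16 alternatives. The members' median change was 0.11 when scaled to the spikes and -0.17 to -0.08 without single arrays. No called member changed sign under any alternative; 10 uncalled members did when scaled to the spikes. Of 647 member values under the alternatives, 594 kept their side of the threshold, 27 lost a call and 26 gained one. All 27 lost calls were among the 6 called members. Each member had 1 probe set, so averaging a gene's probe sets could not change a member's signal.

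Pathway genes that fell, 8 as reported, numbered 2 scaled to the spikes, 13 with the lowest 50% left out or with array weights, 16 with an intensity trend, robust or not, 4 by the ordinary t statistic and 3 to 11 without single arrays. Those that rose, 3 as reported, numbered 1 after centring on medians, 5 with the lowest 50% left out, 7 with an intensity trend, robust or not, and 1 to 2 without single arrays. For all genes, 290 fell and 1575 rose scaled to the spikes, 1719 and 1586 with an intensity trend, and 1702 and 1580 with robust fitting as well. With the lowest 50% left out, 1522 of the 9752 genes tested fell. Without single arrays 548 to 1048 fell and 594 to 903 rose. The cause of these differences was not tested, beyond the fewer genes or arrays that a filter or a left-out array leaves.

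With the replicate number as a block, 3 members, 5 pathway genes and 622 of all genes fell, and 0, 1 and 646 rose. Same-numbered arrays did not deviate together (correlations of deviations over genes of -0.17, -0.16 and 0.07), so the numbers were not taken to pair the samples.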
